A study of Mus musculus with 75 samples.

Results

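Livers of 5-month-old male C57Bl/6 mice were compared between 10 mice labelled high risk and 16 labelled low risk for liver tumors, which make up 26 of the 75 libraries of the series. All 26 mice had been exposed to tributyltin (TBT) through their mothers, which drank it in water that held 3.07 µM, a daily dose of 0.5 mg/kg, until the pups were weaned. The control group of the same age held 8 vehicle males without TBT, and livers of 10 months entered a single comparison: 6 uninvolved livers of high-risk mice and 5 livers of low-risk mice, both TBT-exposed. A further 6 vehicle livers of 10 months, without TBT, entered the fit of that comparison but not its contrast. The 26 livers were chosen by their age and risk labels alone. How risk was assigned at 5 months is not given in the sources used here, so it is unknown whether the labels rest on these expression values. The labels name neither litters nor dams, and mice of a litter may be in the same group.

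TBT is an organotin compound that was used in antifouling paints, and it activates the retinoid X receptor and its partner PPARgamma. In the male mouse liver, pulses of growth hormone act through the growth hormone receptor and STAT5b and keep a set of male-biased genes on, including the major urinary proteins and several cytochromes P450. Hepatocytes near the central vein depend on Wnt signals from neighbouring endothelium for glutamine synthetase, Cyp2e1 and Cyp1a2, whereas hepatocytes near the portal vein carry out the urea cycle. Injured liver is known for entry of hepatocytes into the cell cycle, for scar-forming myofibroblasts that arise from stellate cells, for a ductular reaction with cholangiocyte genes, and for macrophages that take up lipid and express Trem2 and Gpnmb.

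Whole-number counts were available for 55536 genes, and the totals ran from 7.79 to 45.4 M in high-risk and from 7.72 to 45.1 M in low-risk livers. Levels are given as CPM, counts scaled to a common library size with edgeR's TMM method, and they are not scaled to gene length. Where a run of values is given for a group, it is the lowest, the median and the highest of its libraries. The share of counts in long noncoding genes was 1.15% ± 0.310 (SD, n = 10) in high-risk and 0.815% ± 0.211 (n = 16) in low-risk livers (two-sided permutation test, p = 0.00249, adjusted over 6 library measures 0.0149), and its part in the results below was not tested. Genes detected numbered 19682, 24487 and 39669 in high-risk and 15118, 22426 and 25544 in low-risk livers (permutation p = 0.0214, adjusted 0.0642). High-risk liver 10 had the most genes detected, and high-risk 15 and low-risk 16 had 14.5% and 11.2% mitochondrial counts. Albumin, the main secreted protein of hepatocytes, had 43701, 71597 and 137790.0 CPM in high-risk and 48595, 82364 and 141250.0 CPM in low-risk livers.

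The contrast between risk groups was broad and was seen in both sequencing batches. Of 14773 genes tested with batch as a covariate, 38.9% passed a Benjamini-Hochberg adjusted p of 0.05 in edgeR's quasi-likelihood F test, 20.3% higher and 18.5% lower in high-risk livers, which is the background for every count below. The median log2 fold change of all genes was -0.01, and 0.02 with RLE scaling or DESeq2. Among genes past the threshold, 1672 were more than 2-fold higher and 472 more than 2-fold lower. The genes lower in high-risk livers were the more abundant ones, with a median level of 39.5 CPM in low-risk livers, against 2.79 CPM for the genes that were higher. Without any overlap between the 10 high-risk and 16 low-risk values were 270 genes (1.83% of those tested), 197 higher (1.33%) and 73 lower (0.494%).

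The batches hold different mice, so each gives its own estimate. Batch 1 (3 high-risk against 6 low-risk) called 4.69% of 16465 genes (3.09% higher, 1.61% lower) and batch 2 (7 against 10) called 32.3% of 13859 (18.2% higher, 14.1% lower). Across 13855 genes in both, the fold changes had a Pearson r of 0.818 and a Spearman rho of 0.800, given as a description since genes are not independent replicates. Of 4471 genes called in batch 2, 4350 (97.3%) had the same sign in batch 1, and of 755 called in batch 1, 753 (99.7%) had the same sign in batch 2. Among all 13855 genes, called or not, 81.7% had the same sign in both batches. Over the genes called higher in batch 2, the median log2 fold change was 1.04 in batch 1 and 1.05 in batch 2. The deposited counts had already been adjusted between batches by the authors, so the batches are not fully independent of each other.

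**Figure D1:**
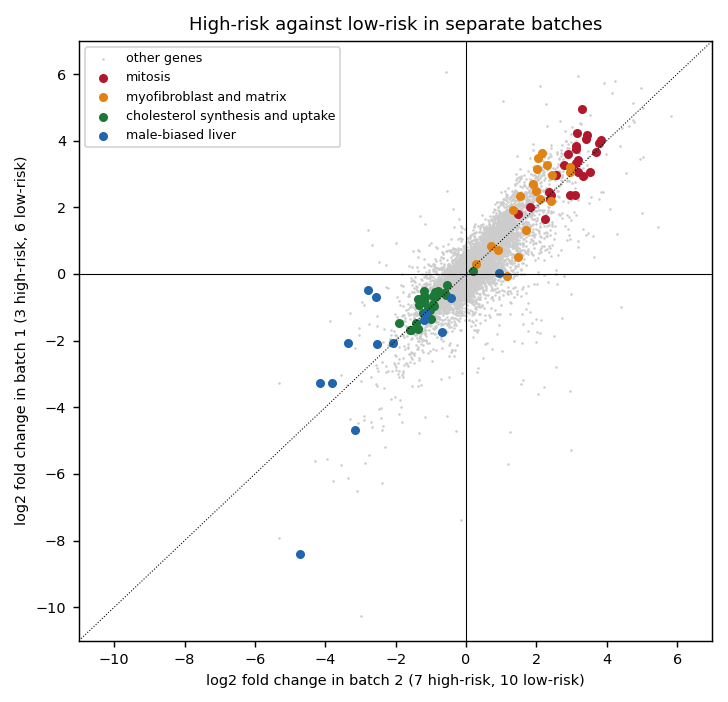
Log2 fold change of high-risk against low-risk livers, each point a gene, estimated in batch 2 (x axis, 7 against 10 livers) and in batch 1 (y axis, 3 against 6 livers). Coloured points are members of 4 gene lists, the dotted line marks equal values, and genes of mitosis and matrix lie at the upper right and male-biased genes at the lower left in both batches.

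The high-risk livers did not all carry the pattern to the same extent. Each liver was placed by the median log2 shift of the higher genes minus that of the lower genes, with the genes taken from the other batch and the low-risk livers of its own batch as reference. In batch 2, high-risk livers 10, 12, 13, 17 and 25 lay between 2.63 and 2.89. High-risk livers 1 and 22 lay at 0.82 and 1.04, above all 10 low-risk livers of that batch (-0.27 to 0.23) and well below the other high-risk livers. In batch 1, high-risk livers 4, 9 and 15 lay at 1.26, 1.33 and 1.69, and the 6 low-risk livers between -0.33 and 0.22. The number of genes called in the whole comparison was 6088 without high-risk 1 and 5908 without high-risk 22, against 5745 with all libraries. Such a rise was not particular to these livers, since 6058 were called without low-risk 16.

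**Figure D2:**
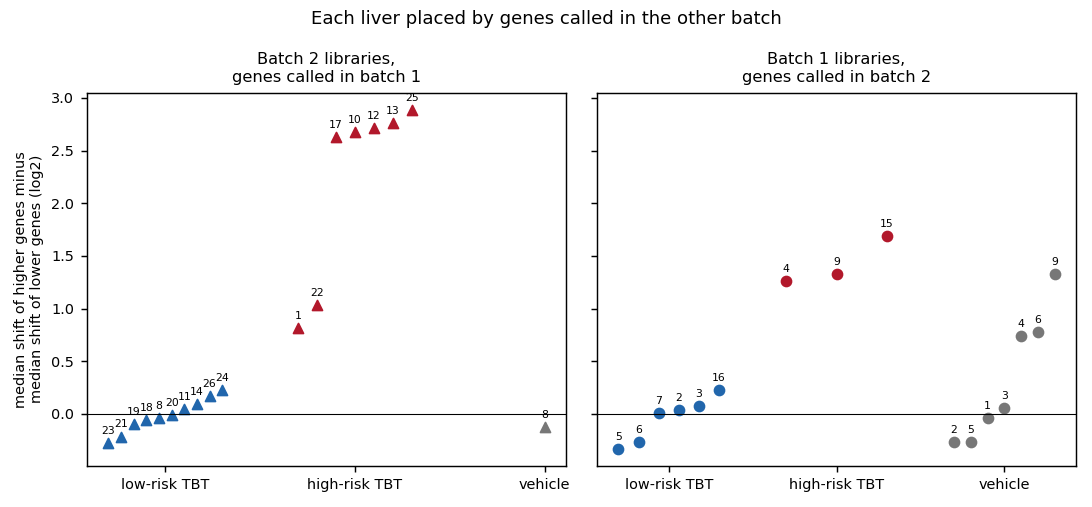
Shift of each 5-month liver (points, labelled by mouse number) along the risk contrast, as the median log2 shift of higher genes minus that of lower genes, with genes called in the other batch (508 higher and 265 lower from batch 1 at left, 2521 higher and 1951 lower from batch 2 at right). Every high-risk liver lies above every low-risk liver of its batch, and livers 1 and 22 lie between the groups. Vehicles 4, 6 and 9 lie between 0.74 and 1.33, vehicle 9 among the high-risk livers of its batch.

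Of the 8 vehicles, 3 also lay away from zero in this shift, which rests on different genes in each batch. Vehicles 4, 6 and 9 had shifts of 0.74, 0.77 and 1.33, and the other 5 lay between -0.27 and 0.05. Within batch 1, vehicle 9 (1.330) lay above high-risk livers 4 (1.263) and 9 (1.325) and below high-risk liver 15 (1.688). Vehicle 9 had the fewest counts of the 5-month libraries, 2.83 M, and 46.6% of them fell on its 10 most abundant genes. High-risk livers differed from vehicles in 15.8% of the genes tested (8.47% higher, 7.38% lower), in a contrast that shares the 10 high-risk libraries with the risk contrast. Low-risk livers differed from vehicles in 0 genes (0%) at an adjusted p under 0.05 by edgeR, the one tool run on this contrast, and in 934 at an unadjusted p under 0.05. Of the vehicles, 7 were in batch 1 and 1 in batch 2.

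Among genes without overlap that also kept their sign in both batches, the 12 with the largest increase were Lrtm2, Gpnmb, Ly6d, Shc2, Mmp12, Noct, Mybl1, Ncam1, Plat, Cbr3, Svep1 and Gprc5b. Lrtm2 (ENSMUSG00000055003, chromosome 6, 119315133 to 119330766, GRCm38) encodes a leucine-rich repeat transmembrane protein and had 4.81, 7.94 and 24 CPM in high-risk against 0, 0.0115 and 1.86 CPM in low-risk livers. Its log2 fold change was 5.51 (SE 0.85, edgeR adjusted p 6.85e-06). Gpnmb, a glycoprotein of lysosomes in lipid-laden macrophages, had 7.64, 41.8 and 60.3 against 0.239, 0.947 and 3.78 CPM. Its 2 lowest high-risk values came from livers 1 and 22, and a vehicle reached 93.5 CPM, above all high-risk livers.

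Mmp12, the elastase of macrophages (ENSMUSG00000049723, chromosome 9, 7344381 to 7369499), had 2.87, 15.8 and 24.1 CPM in high-risk livers and 0, 0.473 and 2.39 CPM in low-risk livers, a log2 change of 4.53 (SE 0.58, edgeR adjusted p 5.81e-07). Plat, tissue plasminogen activator, had 3.1, 8.98 and 15.5 against 0, 0.787 and 1.97 CPM. Ncam1, a neural cell adhesion molecule, had 1.59, 7.58 and 20.2 against 0.0759, 0.691 and 1.21 CPM. Mybl1, a transcription factor of the Myb family, differed by 3.68 (SE 0.42, edgeR adjusted p 9.48e-08) and Noct, the circadian deadenylase nocturnin, by 3.88 (SE 0.54, edgeR adjusted p 2.11e-06). Noct had 57.9, 122 and 182 CPM in high-risk livers, and a vehicle reached 95.1 CPM, so the vehicle group overlapped the high-risk group where the low-risk group did not.

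The 12 largest decreases were in Hsd3b5, Slco1a1, Serpina12, Susd4, Trhde, Dct, Cd163, Sult2a8, Nxpe2, Cadm4, Adgrf1 and Slc22a7. Slco1a1, an organic anion transporter of the hepatocyte's blood side (ENSMUSG00000041698, chromosome 6, 141907282 to 141946962), had 2.58, 24.8 and 144 CPM in high-risk livers and 443, 595 and 889 CPM in low-risk livers. Its log2 fold change was -3.83 (SE 0.54, edgeR adjusted p 2.08e-06). Serpina12, the secreted serpin vaspin (ENSMUSG00000041567, chromosome 12, 104028769 to 104044443), had 2.12, 7.91 and 19.8 against 51.8, 94.6 and 276 CPM, a difference of -3.62 (SE 0.42, edgeR adjusted p 1.45e-07). Sult2a8, a bile acid sulfotransferase of mouse liver, had 11.8, 21.6 and 407 against 452, 649 and 1012 CPM. Slc22a7, an organic anion transporter, had 5.3, 12.3 and 28.8 against 30.2, 57.1 and 87.3 CPM. Trhde, which encodes a thyrotropin-releasing hormone-degrading enzyme, was low in all livers, with 2.89, 4.9 and 7.34 CPM in the low-risk group and 0, 0.191 and 1.74 CPM in the high-risk group.

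**Figure D3:**
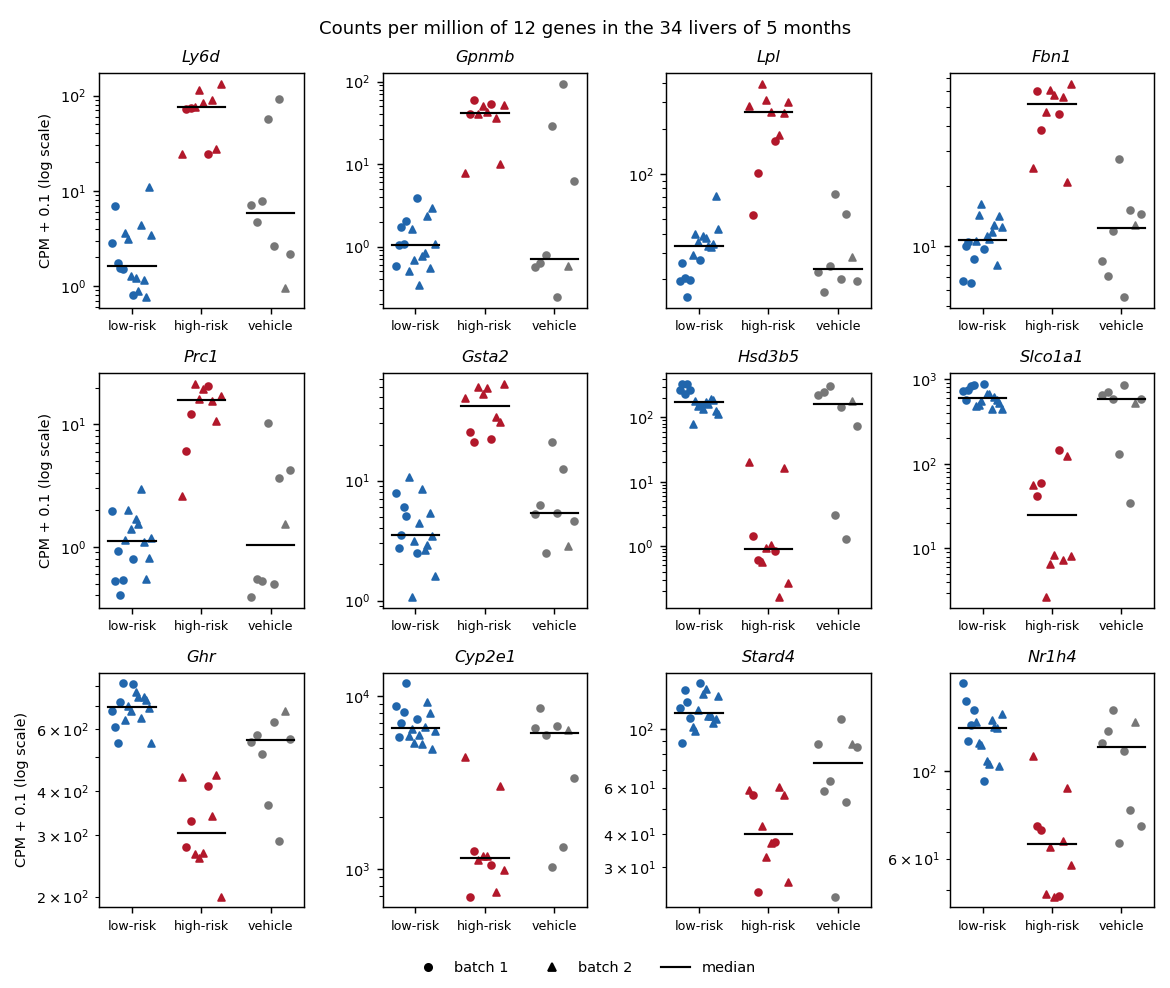
CPM plus 0.1 (log scale) of 12 genes in the 16 low-risk, 10 high-risk and 8 vehicle livers, with a symbol per library (circles batch 1, triangles batch 2) and a bar at the median. The first 6 genes are higher and the last 6 lower in high-risk livers, and a few vehicles sit among the high-risk values.

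Genes of mitosis were higher in high-risk livers as a whole list. All 26 listed members were tested and all 26 were past the threshold as higher, with a median log2 fold change of 3.17. Summed over the list, the level was 67.3, 374 and 633 CPM in high-risk and 16.2, 42.4 and 85.2 CPM in low-risk livers, and 9 of 10 high-risk livers exceeded every low-risk liver. The exception was high-risk liver 1, whose mean log2(CPM + 1) over the list was 0.46 above the low-risk mean, against 1.72 to 3.17 in the other 9. In vehicles the summed level was 15.5, 34.8 and 247 CPM, so the highest lay within the high-risk range. Mki67, the proliferation antigen, had 14.1, 88.6 and 121 against 2.59, 7.49 and 20.6 CPM. Prc1, which bundles microtubules in dividing cells, had 2.5, 15.8 and 21.4 against 0.304, 1.01 and 2.89 CPM and a log2 change of 3.63 (SE 0.45, edgeR adjusted p 2.61e-07). Nusap1, a spindle protein, differed by 2.4 (SE 0.29, edgeR adjusted p 1.34e-07), and Cdc20, an activator of the anaphase-promoting complex, by 3.91 (SE 0.52).

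Genes of DNA replication moved less. Of 32 tested, 18 were higher and 3 lower, with a median of 0.6. Mcm6, a helicase subunit, had 9.53, 22 and 41.5 against 3.69, 6.56 and 12.7 CPM (log2 change 1.7, SE 0.23, edgeR adjusted p 6.90e-07), and Rrm1, a subunit of ribonucleotide reductase, had 18.1, 25.1 and 38.1 against 9.42, 13.7 and 17 CPM without overlap. Mcm10, E2f8 and Tk1 went the other way, Mcm10 with 8.18, 21.8 and 48.7 CPM in high-risk and 27.9, 65.5 and 109 CPM in low-risk livers (log2 change -1.43, SE 0.3, edgeR adjusted p 0.000345). Pcna, the sliding clamp, had 12.8, 23.2 and 36.5 against 15.4, 19.6 and 34.3 CPM and an edgeR adjusted p of 0.0765. In batch 1 alone edgeR called 0 of the replication genes (9 at an unadjusted p under 0.05), against 16 of the mitosis genes. Replication-dependent histone genes, noted after their values were seen, were higher in 23 of 46 tested and lower in 1, with summed levels of 266, 614 and 727 CPM in high-risk and 306, 424 and 705 CPM in low-risk livers.

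Promoter letters were examined for mitosis genes because they moved together, and for 3 further lists. The sequences are those of RefSeq, 250 bases upstream of the start site in GRCm38.p6, and matches of TTTGAA, the core of the cell cycle genes homology region, were searched on both strands. Of 21 mitosis genes with a promoter in the table, 7 (33.3%) held the letters: Mki67, Ube2c, Cdk1, Cdc20, Kif11, Top2a and Ccnb2. Of the promoters of all 10804 tested genes that matched by symbol, 10.9% held them. Cdk1 and Ube2c are printed as examples with a match, chosen after the matches were known, with the matches in capitals.
Cdk1 promoter (chr10:69352913-69353162, minus strand): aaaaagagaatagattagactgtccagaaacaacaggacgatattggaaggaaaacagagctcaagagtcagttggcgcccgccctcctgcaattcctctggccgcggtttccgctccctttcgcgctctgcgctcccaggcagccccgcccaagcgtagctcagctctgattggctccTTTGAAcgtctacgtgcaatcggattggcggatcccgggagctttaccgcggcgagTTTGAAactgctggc
Ube2c promoter (chr2:164769679-164769928, plus strand): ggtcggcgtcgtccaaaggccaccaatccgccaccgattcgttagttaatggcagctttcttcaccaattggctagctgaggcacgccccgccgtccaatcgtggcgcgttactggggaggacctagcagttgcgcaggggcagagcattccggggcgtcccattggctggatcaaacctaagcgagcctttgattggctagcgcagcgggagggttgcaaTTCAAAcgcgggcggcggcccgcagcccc
The matches begin 71 and 15 bases before the start site of Cdk1, the kinase that drives entry into mitosis, and, on the reverse strand, 29 bases before that of Ube2c, a ubiquitin-conjugating enzyme of the anaphase-promoting complex. Cdk1 had 2.42, 15.2 and 23.1 CPM in high-risk against 0.442, 1.44 and 3.65 CPM in low-risk livers and Ube2c 1.06, 7.31 and 17.1 against 0.227, 0.76 and 2.24 CPM. A match is a string of letters and no evidence of a bound site.

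Genes of the p53 response and cell cycle inhibitors were higher beside the mitosis genes. Of 18 tested, 14 were higher and 1 lower, with a median log2 fold change of 0.73. Eda2r, a death receptor of the TNF family, had 2.87, 7.3 and 12.5 against 0.214, 0.79 and 1.86 CPM without overlap (log2 change 3.06, SE 0.35, edgeR adjusted p 8.88e-08). Phlda3, an inhibitor of AKT, had 1.81, 4.75 and 7.95 against 0.0798, 0.679 and 2.44 CPM. Cdkn1a, the inhibitor p21, had 7.95, 45.1 and 86.8 against 0.415, 3.98 and 31.8 CPM (log2 change 2.47, SE 0.55, edgeR adjusted p 0.000636), and 7 of 10 high-risk livers exceeded all low-risk livers. Mdm2, the ubiquitin ligase of p53, differed by 0.38 (SE 0.09), and Sesn1 by -0.38 (SE 0.12, edgeR adjusted p 0.013) in the other direction, a call that did not hold within batch 2 (edgeR adjusted p 0.148).

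Targets of NRF2, the transcription factor of the oxidative stress response, were higher in 17 of 26 and lower in 2, with a median of 0.73. Gsta2, a glutathione transferase, had 21.1, 41.6 and 64.4 CPM in high-risk and 0.974, 3.39 and 10.7 CPM in low-risk livers (log2 change 3.21, SE 0.34, edgeR adjusted p 6.08e-08). Abcc4, an exporter of conjugated bile acids and drugs (ENSMUSG00000032849, chromosome 14, 118482692 to 118706219), had 5.66, 15.8 and 26.6 against 2.19, 4.19 and 5.43 CPM, also without overlap (log2 change 2.04, SE 0.19, edgeR adjusted p 6.57e-09). Cbr3, a carbonyl reductase, had 2.27, 7.73 and 22.6 against 0.197, 0.857 and 2.25 CPM. The rate-limiting pair of glutathione synthesis did not pass the threshold: Gclc differed by 0.15 (SE 0.2) and Gclm by -0.07 (SE 0.13). Gstp1, another glutathione transferase, was lower, with 71.9, 262 and 439 against 279, 635 and 1182 CPM.
The promoter of Abcc4 held a match, in capitals, to the antioxidant response element letters TGACNNNGC, on the reverse strand and beginning 25 bases before the start site.
Abcc4 promoter (chr14:118706220-118706469, minus strand): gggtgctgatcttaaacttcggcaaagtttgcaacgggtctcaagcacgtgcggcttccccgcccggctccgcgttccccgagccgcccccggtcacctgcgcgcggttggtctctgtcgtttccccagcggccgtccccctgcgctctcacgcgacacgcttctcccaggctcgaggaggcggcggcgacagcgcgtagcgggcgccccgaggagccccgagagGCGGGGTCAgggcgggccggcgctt
These letters were found in 4 of the 22 NRF2 target promoters (18.2%) and in 11.9% of all promoters, and Gsta2 had none in its window.

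The integrated stress response, in which ATF4 raises amino acid synthesis and transport genes, had 12 of 18 members higher and 2 lower (median 0.68). Psat1, an enzyme of serine synthesis, had 3.44, 8.03 and 15.9 against 0.38, 1.31 and 3.14 CPM without overlap (log2 change 2.73, SE 0.33, edgeR adjusted p 1.87e-07). Nupr1, a stress-induced chromatin protein, had 2.34, 3.97 and 26.2 CPM in high-risk livers, where its highest value came from liver 1. Atf4 itself was lower, with 52, 60.02 and 87.2 against 56.4, 70.4 and 139 CPM (log2 change -0.32, SE 0.11, edgeR adjusted p 0.0248). Feedback genes of the MAPK pathway were mixed, with 5 of 14 higher and 1 lower, together a share near the 38.9% called of all genes tested. Ccnd1, cyclin D1, had 28.7, 99.5 and 155 against 16.4, 21.4 and 58 CPM (log2 change 1.82, SE 0.31, edgeR adjusted p 2.75e-05), and Spry4, an inhibitor of the pathway, had a log2 change of -1.17.

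Genes of fetal liver and liver tumors were higher in 10 of 15 tested members and lower in 1, with a median of 1.99. Of the 20 listed, Igf2, Igf2bp1, Dlk1, Lin28b and Hmga2 did not pass the filter on low counts. Summed over the list, levels were 139, 518 and 1157 CPM in high-risk and 58.1, 87.4 and 961 CPM in low-risk livers, and 2 of 10 high-risk livers exceeded every low-risk liver. Ly6d, a small membrane-anchored surface protein, had 24.2, 75 and 132 against 0.663, 1.54 and 10.8 CPM without overlap (log2 change 4.73, SE 0.6, edgeR adjusted p 5.09e-07). Scd2, the stearoyl-CoA desaturase of fetal liver, had 24.7, 56.2 and 124 against 5.64, 11.8 and 36.1 CPM (log2 change 2.1, SE 0.24, edgeR adjusted p 1.25e-07), whereas the adult desaturase Scd1 had a log2 change of -1.24 (SE 0.29). Gpc3, a glypican, had 0.938, 10.5 and 30.8 against 0, 2.31 and 12 CPM (log2 change 1.76, SE 0.5, edgeR adjusted p 0.00581). Afp, alpha-fetoprotein, had 0.375, 4.82 and 14.6 against 1.64, 4.26 and 13.8 CPM and an edgeR adjusted p of 0.986. H19, an imprinted noncoding RNA, ranged over 8.14, 149 and 663 CPM in high-risk and 0, 1.03 and 716 CPM in low-risk livers. Its median was higher in high-risk livers, but its highest value came from a low-risk liver. The log2 change of H19 was 5.64 in batch 1 alone and 2.11 in batch 2 alone.

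Ductal and progenitor genes were higher in 11 of 16 and lower in 0, with a median of 1.81. Bicc1, an RNA-binding protein of bile duct epithelium, had 7.31, 35.6 and 42.7 against 2.96, 5.75 and 8.53 CPM (log2 change 2.39, SE 0.27, edgeR adjusted p 7.69e-08), and Ddr1, a collagen receptor, had 3.72, 17.9 and 24.2 against 0.774, 2.15 and 7.97 CPM. Krt19, the keratin of cholangiocytes, had 1.66, 6.07 and 10.5 against 0.107, 1.02 and 78.3 CPM and an edgeR adjusted p of 0.464. On the mean of this ductal and progenitor list, low-risk liver 2 was 1.71 above the low-risk mean and lay among the high-risk livers, while high-risk livers 1 and 22 lay at 0.39 and -0.04. In whole tissue, more cells of a type and more RNA per cell cannot be told apart, here and in the lists that follow.

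Matrix and myofibroblast genes separated high-risk from low-risk livers completely when summed, but not from vehicles. Of 20 tested, 19 were higher and 0 lower, with a median of 2.16, and the sums were 494, 1086 and 1536 CPM in high-risk against 146, 218 and 312 CPM in low-risk livers. Vehicle sums were 129, 210 and 613 CPM, the highest above the lowest high-risk sum. Fbn1, fibrillin of elastic microfibrils (ENSMUSG00000027204, chromosome 2, 125300594 to 125507993), had 20.9, 51.7 and 65.3 against 6.45, 10.6 and 16.3 CPM (log2 change 2.14, SE 0.19, edgeR adjusted p 4.65e-09). Mmp2, a gelatinase of fibroblasts, had 10.6, 25.7 and 29.6 against 0.819, 4.02 and 5.52 CPM, and Col3a1, collagen III, had 105, 309 and 552 against 32.2, 52.8 and 92.2 CPM, both without overlap. The contractile genes of myofibroblasts had smaller differences: Acta2, smooth muscle actin, differed by 0.83 (SE 0.25), and Tagln had 0, 0.817 and 2.76 against 0.080, 0.72 and 2.59 CPM (edgeR adjusted p 0.618). Genes of quiescent stellate cells were split, 5 of 11 higher and 3 lower, with a median of 0.13 that was -0.17 in batch 1 alone. Pdgfrb, the receptor of platelet-derived growth factor, had 23.1, 47.3 and 57.1 against 8.94, 14.8 and 20.3 CPM, and Lrat, which stores vitamin A, was lower at 9.48, 17.9 and 27.6 against 13.5, 30.3 and 52.6 CPM. Colec10, a collectin, had a log2 change of -2.08 with an SE of 0.273.

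Macrophage genes moved in opposite directions by type. Of 15 genes of lipid-associated macrophages, 14 were higher and 1 lower, with a median of 2.19, and in the Kupffer cell list 1 of 13 was higher and 6 were lower, with a median of -0.28. Lpl, lipoprotein lipase (ENSMUSG00000015568, chromosome 8, 68880491 to 68907448), had the smallest p of all tested genes, with 53.6, 257 and 397 against 15, 33 and 71.2 CPM (log2 change 2.71, SE 0.22, edgeR adjusted p 3.60e-10). Itgax, the integrin CD11c, had 3.31, 12.5 and 20.6 against 0.546, 1.69 and 2.48 CPM without overlap, and Trem2, a lipid receptor, had 1.79, 7.35 and 13 against 0, 0.60 and 2.81 CPM. Fabp5, a fatty acid binding protein, was the lower member, with 8.21, 17.6 and 46.5 against 27.5, 85.7 and 527 CPM. Among resident Kupffer cell genes, the scavenger receptor Cd163 had 0.423, 1.25 and 10.8 against 17.9, 22.6 and 41.1 CPM without overlap (log2 change -3.2, SE 0.52, edgeR adjusted p 1.54e-05). Timd4, a phosphatidylserine receptor, had 0.11, 1.13 and 7.86 against 4.56, 9.28 and 12.3 CPM, and Clec4f, the lectin specific to these cells, had 25.8, 58.1 and 129.66 against 71.7, 110.35 and 157 CPM. High-risk livers 1 and 22 were 0.06 and 0.21 above the low-risk mean on the Kupffer cell list, and the other 8 were at -1.48 to -0.50.

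Markers of blood-derived cells were higher in part. Of monocyte and neutrophil genes 7 of 11 were higher and 0 lower, led by Cx3cr1, the fractalkine receptor, at 4.83, 15.2 and 25.7 against 0.666, 1.33 and 3.7 CPM without overlap, and Ccr2, the receptor that recruits monocytes, at 5.14, 10.1 and 17 against 0.80, 3.32 and 5.94 CPM. The neutrophil gene S100a8 had 0.234, 1.5 and 13.4 against 0.239, 1.13 and 15.7 CPM (edgeR adjusted p 0.633). T and NK cell genes were higher in 7 of 12 and lower in 1, but called members fell from 8 to 5 without a filter on low counts and in batch 2 alone, and batch 1 alone called 0 (4 at an unadjusted p under 0.05 in edgeR). The chemokine Ccl5 had 1.21, 2.45 and 3.27 against 0, 0.611 and 1.36 CPM. Cd8a was higher by 2.1 (SE 0.49), and Cd4, which some macrophages also express, had a log2 change of -0.99. B and plasma cell genes were higher in 4 of 13 and lower in 1, together a share near the 38.9% called of all genes tested. Ighg2b had 0.241, 1.98 and 16.9 against 0, 0.8285 and 3.32 CPM, and Derl3 was lower at 0.342, 0.95 and 4.01 against 1.01, 4.25 and 27.2 CPM. Without high-risk liver 1 the B and plasma cell count fell from 5 called genes to 1, and Ighg2b was no longer called (edgeR adjusted p 0.0612). No member of the pancreatic acinar list passed the filter on low counts, with sums of 0.221, 0.826 and 95.2 CPM in high-risk and 0.286, 1.36 and 12.5 CPM in low-risk livers. In the adipocyte list 2 of 3 tested genes were higher, Fabp4 had 11.4, 19 and 110.39 against 3.16, 6.33 and 20.1 CPM, and the other, Cfd, was no longer called without high-risk liver 1 (edgeR adjusted p 0.318), nor in 15 other settings. Of 7 erythrocyte genes 1 was lower, Alas2, at 33.8, 45.8 and 105 against 72.7, 94.9 and 131 CPM.

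The endothelial lists differed in direction as well. Capillary and large-vessel genes were higher in 7 of 12 and lower in 1, and their sums did not overlap, at 274, 445 and 644 CPM in high-risk and 125, 172 and 267 CPM in low-risk livers. Sums in vehicles were 123, 207 and 284 CPM. Cd34, a sialomucin of capillaries, had 5.31, 12.9 and 17.2 against 0.819, 2.01 and 3.79 CPM, and Col4a2, a basement membrane collagen, had 57.8, 99.1 and 160.41 against 24.2, 33.9 and 57.3 CPM, both without overlap. Sinusoidal genes were higher in 1 of 17 and lower in 10, with a median of -0.51. Clec4g, a lectin of sinusoidal cells, had 16.5, 25.8 and 33.8 against 28.6, 49.8 and 63.5 CPM (log2 change -0.96, SE 0.14, edgeR adjusted p 2.05e-06), and Bmp2, which controls hepcidin, had a log2 change of -0.68. Wnt2, a ligand made by central vein endothelium and sinusoids, had 0.872, 1.69 and 3.63 against 1.41, 4.14 and 7.82 CPM (log2 change -1.19, SE 0.25, edgeR adjusted p 0.000238), whereas Lyve1, a hyaluronan receptor, was higher at 12.8, 24.3 and 33.9 against 3.84, 10.1 and 27.6 CPM.

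**Figure D4:**
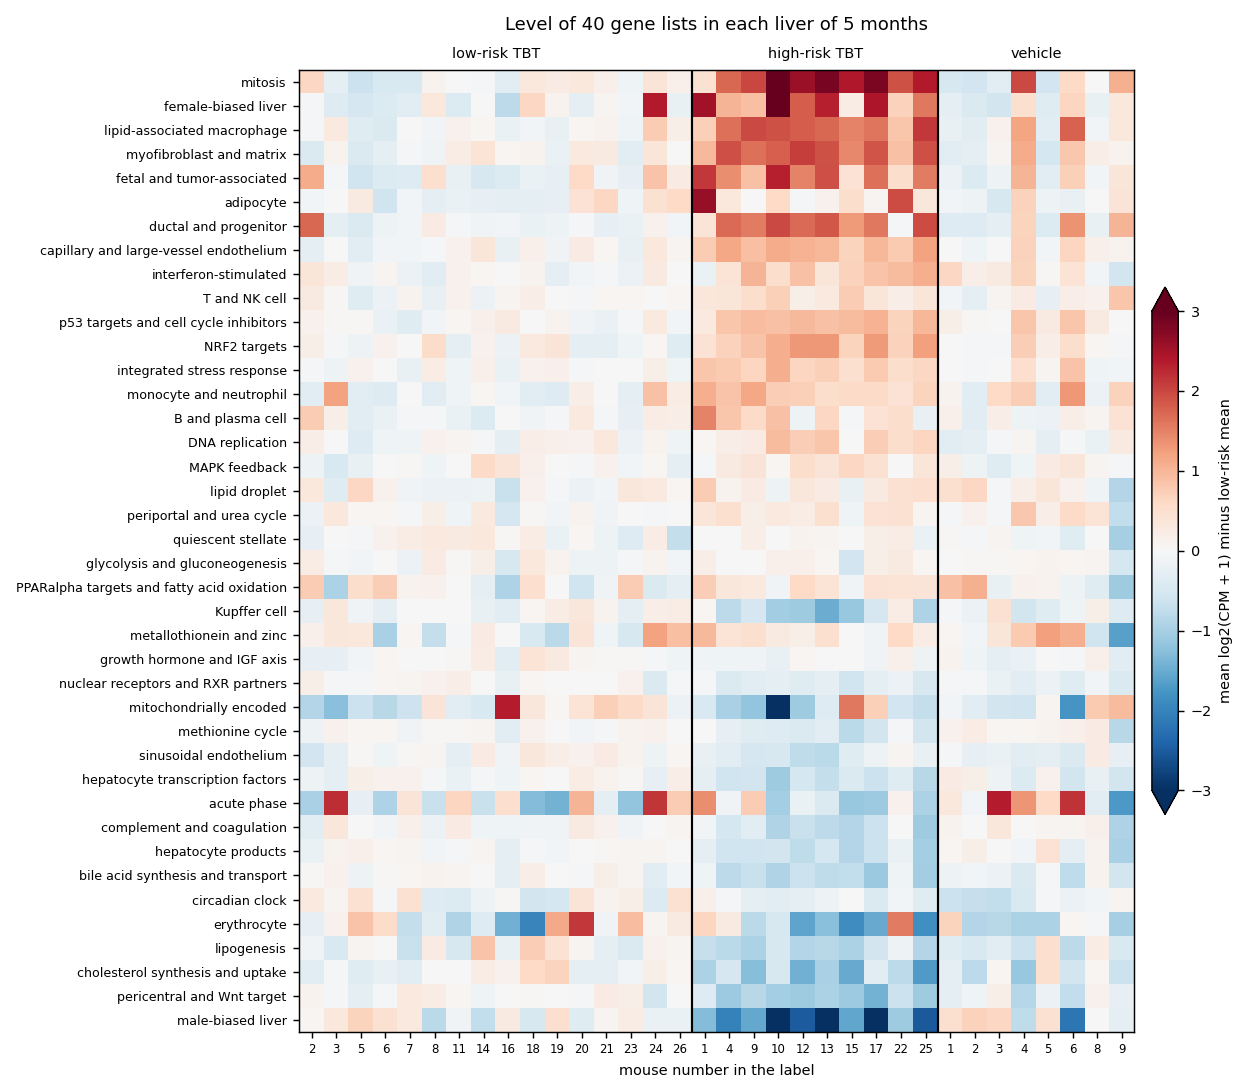
Mean log2(CPM + 1) of the tested members of 40 gene lists (rows, ordered by their median fold change) in each 5-month liver (columns, by mouse number), as the difference from the low-risk mean, with colour from -3 to 3. High-risk livers are red in the upper and blue in the lower rows, livers 1 and 22 are paler on several lists, and vehicles 4 and 6 share part of the pattern.

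Male-biased liver genes were lower and female-biased genes higher in the high-risk males. Of 14 male-biased genes 11 were lower and 0 higher, with a median of -1.99, and of 11 tested female-biased genes 9 were higher and 0 lower, with a median of 2.64. Cyp2d9, a steroid hydroxylase, had 86.1, 255 and 429 CPM in high-risk and 672, 1029.9 and 1402 CPM in low-risk livers (log2 change -2.08, SE 0.24, edgeR adjusted p 9.13e-08). The shift on the male-biased liver list was -4.08 in the lowest high-risk liver, number 10, and -1.06 and -1.31 in livers 22 and 1. Cyp3a44, a female-biased P450, had 1.41, 17.1 and 46 against 0, 1.12 and 11.8 CPM, and Fmo2, a monooxygenase, had 14.4, 36.7 and 79.4 against 8.46, 16.5 and 25.2 CPM. Of the 17 listed female-biased genes, only 11 passed the filter on low counts, and batch 1 alone called 2 of 10. Summed over the 17, levels were 135, 391 and 847 CPM in high-risk and 41, 94.3 and 638 CPM in low-risk livers. Only 2 of 10 high-risk livers exceeded every low-risk liver, and 0 members were without overlap. Low-risk liver 24 was 2.39 above the low-risk mean on the female-biased liver list, within the range of the high-risk livers (0.22 to 3.58). The major urinary proteins, counted as a family because their copies are near-identical, were lower in 24 of 27 tested genes with a median of -2.69, and the sums over 49 genes were 148, 1721 and 5952 CPM in high-risk and 6745, 14112 and 39988 CPM in low-risk livers. The highest high-risk sum was below the lowest low-risk one, but vehicles, at 2999, 17904 and 23807 CPM, overlapped the high-risk livers.

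Within the growth hormone axis, the receptor was lower and a binding protein higher. Ghr (ENSMUSG00000055737, chromosome 15, 3317760 to 3583492) had 199.96, 303 and 445 against 548, 695 and 812 CPM without overlap (log2 change -1.1, SE 0.13, edgeR adjusted p 1.55e-07). Stat5b, which carries the signal to the nucleus, had 47.9, 63 and 101 against 47.9, 86.3 and 127 CPM, and Igfals, the acid-labile subunit that holds IGF1 in serum, had 30.8, 50.7 and 110.23 against 44.8, 133 and 197 CPM, both lower past the threshold. Igf1, the hepatic hormone itself, had 339.53, 608 and 906 against 403, 620.13 and 809.99 CPM (edgeR adjusted p 0.846). Igfbp1, a stress-responsive binding protein, was higher at 148, 479 and 1028 against 37.6, 89.6 and 314 CPM (log2 change 2.26, SE 0.36, edgeR adjusted p 8.08e-06). Of the 14 genes on this list 3 were higher and 4 lower, beside 20.3% higher and 18.5% lower of all genes tested.

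Zonated genes were lower on the pericentral side. Of 21 pericentral and Wnt target genes 14 were lower and 1 higher, with a median of -1.13, and the sums of 1914, 2607 and 7794 CPM in high-risk livers lay below all low-risk sums of 9522, 11518 and 17386 CPM. Vehicle sums of 3146, 11064 and 13412 CPM overlapped the high-risk ones. Cyp2e1 (ENSMUSG00000025479, chromosome 7, 140763739 to 140774987), which oxidises ethanol and small solvents, had 695, 1156 and 4465 against 4930.2, 6527 and 11828 CPM (log2 change -2.18, SE 0.32, edgeR adjusted p 2.25e-06). Glul, glutamine synthetase, had 104, 246 and 725 against 767, 1179.9 and 1420.5 CPM, and Rgn, regucalcin, had 211, 333 and 799 against 806, 1086 and 1228 CPM, both without overlap. Axin2, a feedback gene of Wnt signalling, had 6.93, 8.47 and 13.5 against 4.89, 11.7 and 23.8 CPM (edgeR adjusted p 0.125), and Tnfrsf19 was higher by 0.7. Periportal and urea cycle genes were split, 4 of 17 higher and 3 lower with a median of 0.18, together a share near the 38.9% called of all genes tested. Cps1, the entry enzyme of the urea cycle, had 4811, 5943 and 7784 against 5028, 6411 and 11214 CPM (edgeR adjusted p 0.19), and the mitochondrial dehydrogenase Aldh1b1 was higher at 59.5, 204 and 391 against 16.7, 49.7 and 113 CPM.

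Transcription factors of the hepatocyte were lower in 10 of 16 and higher in 0, with a median of -0.6. Nr5a2, a nuclear receptor of bile acid and sterol genes, had 55.9, 62.8 and 86.2 against 75.8, 103 and 144 CPM (log2 change -0.61, SE 0.09, edgeR adjusted p 1.25e-06), and Nr1h4, the bile acid receptor FXR, had 48, 65.3 and 109 against 94.3, 129 and 167 CPM. Nr1i3, the xenobiotic receptor CAR, had 1.99, 5.42 and 30.2 against 10.5, 32.6 and 66.8 CPM (log2 change -2.19, SE 0.41, edgeR adjusted p 8.92e-05), and Cebpa had a log2 change of -0.95 (SE 0.19). Hnf4a, the central hepatocyte factor, had 419, 568 and 705 against 494, 678 and 938 CPM (edgeR adjusted p 0.146). Among nuclear receptors and partners of RXR, the receptor that TBT binds, 7 of 15 were lower and 1 higher. Thrb, a thyroid hormone receptor, had a log2 change of -0.81, Rxra one of -0.37, and Pparg was the higher member at 9.58, 14.7 and 20.03 against 1.09, 6.21 and 12.4 CPM (log2 change 1.18, SE 0.23, edgeR adjusted p 0.000137).

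Genes that mark hepatocytes by their products were lower in part. Of 17 products tested 11 were lower and 1 higher (median -0.66), and of 28 complement and coagulation genes 19 were lower and 1 higher (median -0.64). Serpina1c, an alpha-1-antitrypsin gene with near-identical copies, had 569, 819 and 1271 against 1286, 1874 and 2547 CPM. Masp2, the protease of the lectin pathway, had 69.1, 97.2 and 151 against 137, 178 and 212 CPM, and Proc, protein C, had a log2 change of -0.88, while Pros1, its cofactor, was higher by 0.38, a call lost without a filter on low counts (edgeR adjusted p 0.0951). Tat, tyrosine aminotransferase, was the higher product at 841, 1650.5 and 2132 against 682, 957 and 2027 CPM (log2 change 0.61, SE 0.2, edgeR adjusted p 0.0145). Acute phase genes were lower in 5 of 21 and higher in 1, a share near the background, and 2 were called without a filter on low counts. Crp had 113, 138 and 240.12 against 218, 287 and 479.96 CPM, whereas Saa1 ranged over 8.17, 96.4 and 1803 against 5.44, 184 and 6141 CPM (edgeR adjusted p 0.316). Methionine cycle genes were lower in 9 of 18 and higher in 1, led by Shmt1 (log2 change -1.12, SE 0.16) and Dmgdh (log2 change -1.0, SE 0.14), enzymes of folate-linked one-carbon metabolism.

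Bile acid synthesis and transport genes were more often lower than higher. Of 24 tested 13 were lower and 4 higher, with a median of -0.68, and the sums lay at 3651, 4251 and 6802 CPM in high-risk and 8089.5, 9163 and 10303 CPM in low-risk livers, so the risk groups did not overlap. Those of vehicles, at 4803, 8459.5 and 10175 CPM, overlapped both. Slc10a1, the sodium-dependent uptake transporter NTCP, had 118, 175 and 479 against 480.11, 659 and 925 CPM, and Cyp27a1, of the acidic synthesis pathway, had 130.32, 167 and 331 against 379, 502 and 625 CPM (log2 change -1.41, SE 0.16, edgeR adjusted p 9.42e-08). Baat, which joins bile acids to amino acids, had 94.4, 119.56 and 188 against 203, 251 and 392 CPM. Cyp7a1, the rate-limiting enzyme, had 18.4, 53.5 and 156 against 24.6, 112 and 352 CPM (edgeR adjusted p 0.0671). The basolateral exporters Abcc4 and Slc51b were higher, Slc51b at 0.854, 2.05 and 5.25 against 0, 0.311 and 1.65 CPM, and the canalicular exporter Abcb11 had a log2 change of -0.52 (SE 0.11).

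**Figure D5:**
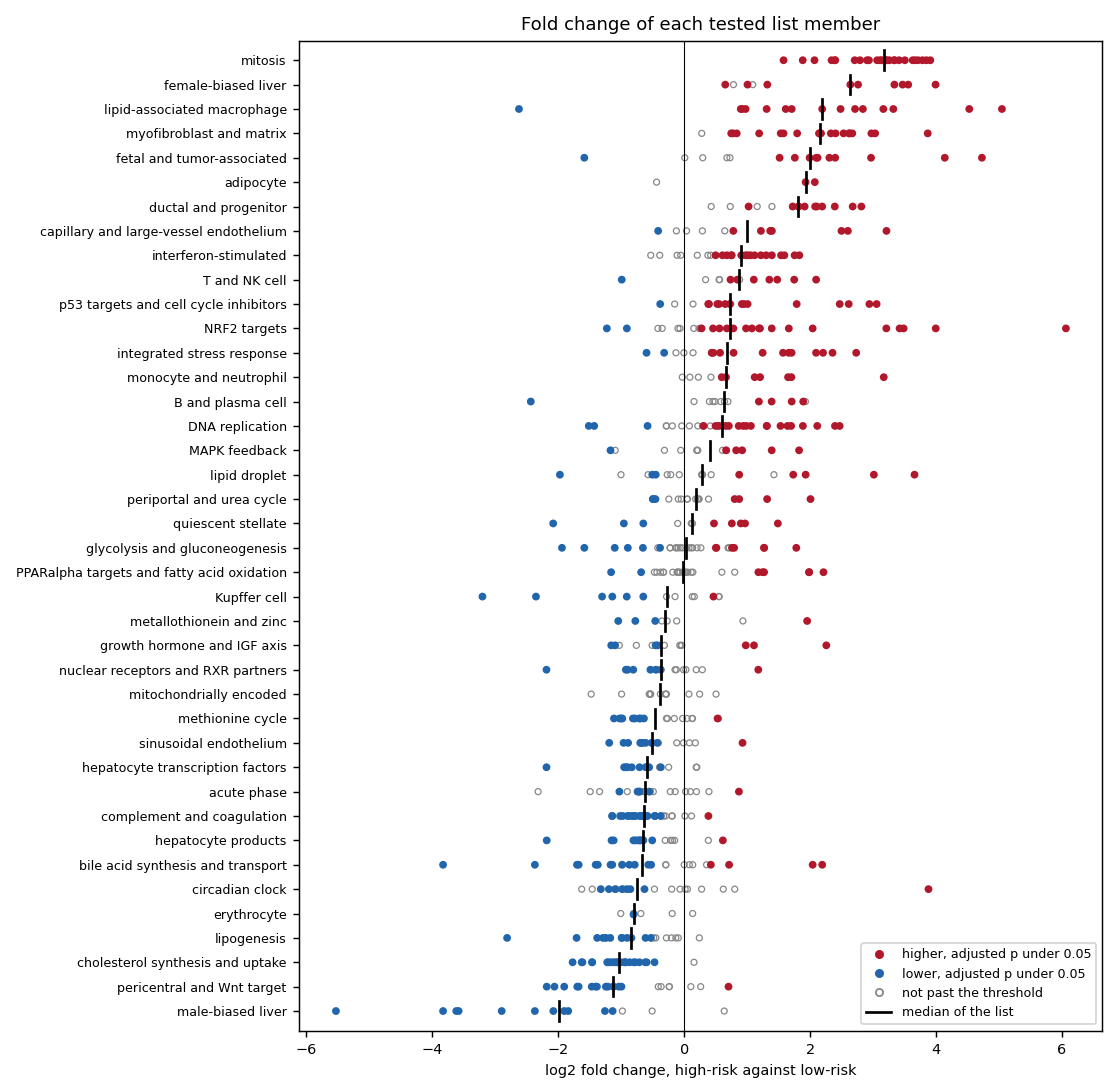
Log2 fold change of high-risk against low-risk livers for each tested member (points) of 40 gene lists (rows), filled where the edgeR adjusted p is under 0.05 and open otherwise, with a bar at each list's median. Mitosis lies at the right with a median of 3.17 and male-biased liver at the left with a median of -1.99.

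Genes of cholesterol synthesis and uptake were lower almost without exception. Of 25 tested 24 were lower and 0 higher, with a median of -1.03. Stard4, a sterol carrier, had 24.2, 40.1 and 60.3 against 88.4, 115 and 148 CPM without overlap (log2 change -1.46, SE 0.18, edgeR adjusted p 1.34e-07). Fdps, farnesyl diphosphate synthase, had 3.75, 9.28 and 17.2 against 14.8, 31.4 and 60.00 CPM. Batch 2 alone called 24 members and batch 1 alone called 1, with medians of -1.07 and -0.85. Vehicles had 23.2, 74.3 and 109 CPM of Stard4. The sterol element letters TCACNCCAC were found in 1 of 17 promoters of this list and in 1.06% of all promoters. Hmgcs1, which condenses acetyl groups on the way to mevalonate, holds that match, in capitals, beginning 137 bases before the start site.
Hmgcs1 promoter (chr13:119690101-119690350, plus strand): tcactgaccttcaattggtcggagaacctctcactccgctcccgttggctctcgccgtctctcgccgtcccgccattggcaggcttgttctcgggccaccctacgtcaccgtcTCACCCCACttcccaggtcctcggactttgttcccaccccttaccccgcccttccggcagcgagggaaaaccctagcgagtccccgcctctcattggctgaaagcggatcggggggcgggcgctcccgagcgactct
Its level was 98.2, 169 and 319 CPM in high-risk and 81.3, 314 and 698 CPM in low-risk livers (log2 change -0.93, SE 0.28, edgeR adjusted p 0.00923). The letters TTCNNNGAA of STAT5 sites were in 0 of 8 promoters of the male-biased list and in 6.05% of all promoters.

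Lipogenic genes were lower in 12 of 19 and higher in 0, with a median of -0.84. Dgat2, which closes triglyceride synthesis, had 166, 215 and 405 against 318, 567 and 737 CPM (log2 change -1.17, SE 0.15, edgeR adjusted p 2.26e-07), and Acacb, a mitochondrial acetyl-CoA carboxylase, had 43.7, 58.2 and 182 against 83.9, 221 and 466 CPM. Thrsp, a thyroid hormone-responsive gene of lipogenesis, had 10.1, 15.3 and 103 against 40.2, 148 and 534 CPM, and Srebf1, which encodes SREBP1, differed by -0.28 (SE 0.21). Lipid droplet genes were split, 5 of 19 higher and 3 lower, together a share near the 38.9% called of all genes tested. Their median was 0.28, and -0.24 in batch 1 alone. Cidec, which fuses droplets, had 14.8, 38.8 and 82.7 against 1.46, 3.94 and 13.1 CPM without overlap (log2 change 3.01, SE 0.4, edgeR adjusted p 9.34e-07), whereas the coat protein Plin2 had 517, 719 and 1376 against 326, 570.20 and 1097 CPM (edgeR adjusted p 0.41). Vehicles had 1.53, 20.02 and 25.4 CPM of Cidec.

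Fatty acid oxidation genes mostly did not pass the threshold. Of 28 PPARalpha targets 6 were higher and 2 lower, with a median of -0.02 (0.14 in batch 2 alone). Cd36, a fatty acid transporter that PPARgamma also controls, had 125, 188 and 280.12 against 26.7, 44.1 and 91.1 CPM without overlap (log2 change 1.98, SE 0.27, edgeR adjusted p 1.00e-06), and Acot2, a mitochondrial thioesterase, had 7.24, 21.2 and 47.8 against 0.93, 3.8 and 16.1 CPM. Cpt1a, the gate of fatty acid entry into mitochondria, differed by -0.01 (SE 0.18), and Fabp1, the liver fatty acid binding protein, was lower at 803, 1461 and 2703 against 1827, 2921 and 5434 CPM. Glycolysis and gluconeogenesis genes went both ways, 7 of 28 higher and 6 lower, with a median of 0.02 (-0.23 in batch 1 alone). These shares are near the 20.3% higher and 18.5% lower of all genes tested. Pklr, the liver pyruvate kinase, had 34, 58.3 and 149 against 112, 230.27 and 467 CPM (log2 change -1.94, SE 0.24, edgeR adjusted p 2.09e-07) and Khk, ketohexokinase, had a log2 change of -1.59, while Hk2, a hexokinase low in adult hepatocytes, had 5.62, 7.09 and 11 against 1.09, 3.09 and 4.65 CPM without overlap.

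Interferon-stimulated genes were higher in 18 of 25 and lower in 0, with a median of 0.91. Oasl2, an antiviral protein of the oligoadenylate synthetase family, had 6.05, 16.5 and 28.3 against 2.73, 5.7 and 11.5 CPM (log2 change 1.59, SE 0.19, edgeR adjusted p 1.34e-07), and Ifi44 had 5.07, 17.2 and 35.1 against 3.14, 4.82 and 10.3 CPM. Psmb8, an immunoproteasome subunit, differed by -0.39 (SE 0.17, edgeR adjusted p 0.0691). High-risk liver 1 lay at -0.21 on the mean of the interferon-stimulated list and the other 9 at 0.36 to 1.09. Clock genes were lower in 7 of 20 and higher in 1, together a share near the 38.9% called of all genes tested, with 4 called in batch 2 alone and 2 in batch 1 alone. Cry2, a repressor of the clock, had 10.7, 14.9 and 23 against 16, 28.8 and 45.7 CPM, while the output regulator Dbp had 1.11, 2.38 and 47.6 against 0.4657, 32 and 95.7 CPM (edgeR adjusted p 0.0947). The hour of sampling is not given in the sources used here. Zinc and metallothionein genes were higher in 1 of 8 and lower in 3, with the zinc importer Slc39a4 at 29.1, 94.7 and 176 against 6.96, 22.8 and 53 CPM and Mt1 at 46.8, 139 and 479 against 3.42, 72.5 and 2113 CPM (edgeR adjusted p 0.78). Of 13 genes encoded by mitochondrial DNA 0 were past the threshold by edgeR (0 at an unadjusted p under 0.05), and 0 by DESeq2. In edgeR fits 4 were past it without the technically deviating libraries, 3 without high-risk liver 15, 1 without high-risk liver 17 and 1 in batch 2 alone, and the list's median was 0.17 in batch 1 and -0.66 in batch 2.

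Uninterrupted runs of at least 7 neighbouring tested genes called in 1 direction numbered 10, given as a description, with no run length expected by chance computed. The longest uninterrupted run of tested genes past the threshold in 1 direction was 16 major urinary protein genes on chromosome 4 (59964294 to 61595871), all lower. On chromosome 1, 12 neighbours, Aim2, a sensor of cytosolic DNA, and genes of the interferon-inducible Ifi200 family (173350879 to 174031810), were all higher with a median of 1.15. Chromosome 13 held 9 histone genes (21715763 to 21783370) and another 9 (23535422 to 23574196), all higher. A run of 8 higher genes on chromosome 19 held Ms4a genes, expressed by macrophages and other leukocytes, with a median of 1.41, and a run of 7 higher genes on chromosome 11 held Slfn genes, with a median of 1.24. A run of 7 lower genes on chromosome 15 held genes and pseudogenes of the Cyp2d family, with a median of -1.43. The other 3 runs held 7 genes each, lower from Nhej1 to Ankzf1 on chromosome 1 and higher from Ddr1 to Ppp1r18 on chromosome 17 and from Adam22 to Abcb4 on chromosome 5. Major urinary protein, histone and Cyp2d genes have near-identical copies, and how reads shared by copies were counted is not given in the sources used here.

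Whether the risk contrast was the same at 10 months was tested as the difference of the 2 contrasts, the later being uninvolved high-risk against low-risk liver. A positive value is a contrast that was higher at 10 months. Of 17572 genes 62 (0.353%) had an adjusted p under 0.05 in edgeR, 34 higher (0.193%) and 28 lower (0.159%), and 1958 had an unadjusted p under 0.05. Of the 62, 43 were protein-coding, and 9 of the 34 higher ones were small noncoding RNAs, led by Snora23 with the largest positive difference, 4.13. Acot2 had a 5-month log2 fold change of 1.96 and a 10-month one of -1.04, a difference of -2.997 (SE 0.70, edgeR adjusted p 0.0416). Nt5e, an ectonucleotidase that makes adenosine, went from 1.71 to -0.86 (difference -2.57, SE 0.45, edgeR adjusted p 0.00384). At 10 months the values of Nt5e were 4.86, 5.47, 6.03, 6.05 and 6.62 CPM in uninvolved and 6.52, 7.93, 11.2, 12.2 and 14.95 CPM in low-risk livers. The 10-month contrast by itself was not past the threshold for Nt5e (edgeR adjusted p 0.0782) or Acot2 (edgeR adjusted p 0.171), so no reversal is shown. Cyp4a31, a fatty acid hydroxylase, and Spc25, a kinetochore protein, were higher at 5 months (2.41 and 1.27) and had -0.12 and -0.81 at 10 months.

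In the other direction, Mlxipl, the carbohydrate-responsive transcription factor ChREBP, had -1.31 at 5 months and 0.40 at 10 months (difference 1.71, SE 0.37, edgeR adjusted p 0.0338). Angptl8, a feeding-induced regulator of lipoprotein lipase, had -1.36 and 0.78 (difference 2.14, edgeR adjusted p 0.0227). Mup21 had -4.50 and -1.62, and Dsg1c, a desmoglein, -1.62 and 0.23. The Mup21 contrast kept its direction, with uninvolved livers at 49.2, 96.1, 111, 139 and 166 CPM and low-risk livers at 247, 268, 328, 413 and 474 CPM. Among the protein-coding genes named for this difference, Mup21 alone was past the threshold in the 10-month contrast by itself (edgeR adjusted p 0.0338). The count of 62 depended on single 10-month samples, all sequenced in batch 1: leaving out each of the 10 in turn gave 5 genes at the lowest, without low-risk 4, and 51 at the highest, without uninvolved 3 and 6, and every omission but the last moved the count by over 1.5 times. Nt5e was past the threshold in 10 of these 10 fits and Spc25 in 8. Angptl8 was in 5, Mlxipl in 3, Acot2 in 2, Mup21 and Dsg1c in 1 each and Cyp4a31 in 0.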

How the data were processed

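Liver RNA was extracted with RNeasy columns and DNase treatment and made into libraries with the TruSeq Stranded Total RNA kit, per the labels' protocols. Reads were trimmed with Trim Galore, aligned with HISAT2 to mm10 and counted with featureCounts, per the submitters' processing notes, with versions and the strand setting not given in the sources used here, so antisense partners cannot be told apart with certainty. The deposited table holds whole-number counts that the authors adjusted between sequencing batches with ComBat-seq, per the file's name. Whether the groups were given to that step is not given in the sources used here. Gene positions come from GENCODE M21 (GRCm38).

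The counts of all 34 libraries of 5 months (10 high-risk, 16 low-risk, 8 vehicle) entered one edgeR 4.0.16 quasi-likelihood fit in R 4.3.3 (TMM scaling, filterByExpr, robust, batch as covariate), with p-values adjusted over all genes by Benjamini-Hochberg and a threshold of 0.05. SE is the absolute log2 fold change divided by the square root of F. The age difference used a fit with the 10-month groups, in which uninvolved libraries 3 and 6, labelled as different mice but with counts far closer than those of any other pair (a chi-square per gene of 4.97, against 34.7 or more in the other pairs of the same group), were summed and counted as 1 sample, giving 5. Library measures were compared by two-sided permutation tests with 100000 resamples. The labels do not say that mice were from separate litters, and the p-values treat each mouse as independent. If littermates share a group, these p-values may be too small. Single-gene precision falls with low counts, and totals are given with the libraries.

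Named genes were the 12 largest changes in each direction among protein-coding genes past the threshold, without overlap between groups, with the same sign in both batches and a mean of at least 5 CPM in a risk group, leaving out predicted genes and the Mup family. In each list the rule named the 2 members with the smallest adjusted p and the foremost member of the less common direction, and for the age difference 4 genes in each direction. Other list members were named after their values were seen, mostly because they define a list or did not follow it. Promoters of 2 members of each of 4 lists fell under the rule (Abcc4, Gsta2, Prc1, Nusap1, Tm7sf2, Hsd17b7, Cyp2d9 and Serpina12), of which Abcc4 alone held a match and is printed. Those of Cdk1, Ube2c and Hmgcs1 were chosen for their match. The members and gene lists were chosen with earlier results of these data known. The fit was tested on simulated data for 14457 genes: in the 5-month comparison it called 76 of 100 genes changed by a log2 of 1 and 92 of 100 changed by a log2 of 2, with 5 false calls. Batch 2 alone called 72 and 93 of 100, batch 1 alone 20 and 61, and the age difference 35 and 64. False calls there numbered 11, 3 and 2. Each simulation changed 200 genes and held no batch effect, whereas 38.9% of genes were called in the 5-month data. Alternatives were RLE scaling, no filter, DESeq2, no batch covariate, each batch alone, the 26 risk libraries alone, protein-coding genes alone, 4 technically deviating libraries left out, and each replicate left out.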

Additional observations from a re-analysis of the deposited data

Results flagged for a closer look

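In the 10 high-risk livers the highest and the lowest sample were compared with the rest by Dixon's ratio, for 6 library measures and the named genes. The 8 vehicles were tested on the library measures alone, and the 16 low-risk livers were not tested. Of 128 such tests 16 gave a sample far from the others. About 1 in 20 is the chance rate for normally distributed values, and these tests share the same livers. An excess over chance therefore cannot be read from the count. High-risk liver 9 had a total of 45.4 M counts, high-risk 10 had 39669 genes detected and high-risk 15 had 14.5% mitochondrial counts. Vehicle 9 stood apart on 4 measures, with 38206 genes detected, 46.6% of counts in its 10 most abundant genes, 0.392% small noncoding and 1.67% long noncoding counts.

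Among named genes, high-risk liver 1 was far above the other high-risk livers in Lrtm2 (23.97 CPM), in Nupr1 (26.2 CPM) and in Derl3 (4.01 CPM). High-risk liver 22 was far above them in Pklr (148.8 CPM) and Acacb (182.5 CPM) and far below in Tat (841 CPM). High-risk liver 15 was the low sample in Adgre1, the macrophage antigen F4/80 (20.7 CPM), and in Khk (30.1 CPM), and high-risk liver 4 in Noct (57.9 CPM).

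The 8 genes named for a risk contrast that differed between 5 and 10 months were chosen by edgeR's test of that difference, so listing them here adds no evidence. Leaving out each of 10 samples kept the call of Nt5e in 10 fits and of Spc25 in 8, but that of Cyp4a31 in 0, of Mup21 and Dsg1c in 1 each, of Acot2 in 2, of Mlxipl in 3 and of Angptl8 in 5. The log2 fold change at 10 minus that at 5 months was 2.88 for Mup21, 2.14 for Angptl8, 1.85 for Dsg1c and 1.71 for Mlxipl, and -2.997 for Acot2, -2.57 for Nt5e, -2.53 for Cyp4a31 and -2.08 for Spc25.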

How the results depend on the processing

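The count of 5745 genes in the 5-month contrast stayed within 1.5 times under all alternatives but batch 1 alone, which holds 3 high-risk and 6 low-risk livers and called 773 genes, 508 higher and 265 lower. Without a filter on low counts 5904 were called, but 4346 of them were among the 5745, and the split was 3847 higher and 2057 lower against 3005 and 2740. DESeq2 called 6155, RLE scaling 5669 and batch 2 alone 4472. Leaving out each library in turn gave 5194 to 6088 genes, 2737 to 3241 higher and 2428 to 3041 lower.

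The 62 genes of the age difference became 96 with RLE scaling, 10 without a filter, 363 with DESeq2, 204 without the technically deviating libraries and 106 with uninvolved 3 and 6 kept separate, and the cause was not tested. Without the vehicle groups 72 were called, 48 of them among the 62. Leaving out each 10-month sample gave 5 to 51, with 35 without uninvolved 1. No named gene changed direction under the settings run. Some list medians did: those of quiescent stellate, glycolysis, lipid droplet and mitochondrially encoded genes in batch 1 alone and of PPARalpha targets in batch 2 alone. The one furthest from 0 was that of mitochondrially encoded genes, -0.38 with all libraries and 0.17 in batch 1 alone. Calls of Sox18, Cfd, Cd14, Pros1, Sesn1 and Ighg2b were lost under at least 1 setting other than batch 1 alone, where 62 of the 116 named genes stayed on the same side of the threshold and 54 calls were lost, and mt-Co3 and mt-Nd4l gained a call without high-risk 17 and high-risk 15. No paired analysis was possible because the high-risk and low-risk livers share no replicate number. Genes with few counts limit the precision, and counting error adds to the spread between livers.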
